A study of Mus musculus with 8 samples.

Results

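Chemokines are small secreted proteins that guide leukocytes by binding receptors on their surface, and 10 chemokine genes were followed here through the cells of the mouse cortex: Ccl2, Ccl3, Ccl4, Ccl7, Ccl12, Cxcl1, Cxcl2, Cxcl10, Cxcl12 and Cx3cl1. They were taken by gene symbol, and all 10 of them were found among the 31053 genes listed for each library. The series asked what happens to brain cells when a laminin α chain of the vessel wall is missing. Laminins are trimeric proteins of the basement membrane, and laminins with the α4 chain (gene Lama4) or the α5 chain (gene Lama5) lie under the endothelium of brain vessels.

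There were 4 groups of mice of 8 weeks of age: mice lacking Lama4 in all cells (Lama4-/-) with wild-type (WT) controls of their own, and mice lacking Lama5 through a Cre recombinase driven by the Tek promoter (Tek-Cre:Lama5-/-) with other WT controls of their own. Tek-Cre acts in endothelial cells and is also known to act in blood-forming cells and their progeny. Each group had 2 samples, and the brains of 3 mice had been pooled for each group, so that replicates within a group measure repeated handling of a pool and not the spread between mice. Cortex was digested with enzymes, freed of myelin and run on 10x Genomics 3′ version 3 chemistry, in which each captured RNA molecule is counted once by its unique molecular identifier (UMI). The files of the 2 Lama4-/- samples held identical values and were counted as 1 library, which left 7 distinct libraries. Every comparison of Lama4-/- with its WT is therefore 1 library against 2 and has no test.

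The 7 libraries held 35479306 to 48314458 UMIs in 6295 to 9556 barcodes, of which 47239 cells passed the filters, with a median of 2930.5 to 6606 UMIs per cell. At most 27 barcodes were shared by any pair of libraries. Cells formed 40 clusters, and clusters were assigned to 15 classes by marker genes, with the chemokine genes left out of the clustering. Although the tissue label names the cortical plate, choroid plexus and ependymal cells were also found, the former as 113 cells in Lama4-/- and 25 and 26 in its WT. In pericytes Lama4 stood at 238 and 248 scaled CPM (UMIs of a gene as a share of all UMIs of the class, in counts per 1e6) in the WT of Lama4-/- and at 1.36 in Lama4-/-. In endothelial cells Lama5 stood at 36.0 and 34.6 in the WT of Tek-Cre:Lama5-/- and at 19.8 and 20.4 in Tek-Cre:Lama5-/-, while in smooth muscle it was 132 and 115 against 129 and 145. The deleted part of Lama5 is not given in the sources used here, and 3′ counts can include RNA that lacks deleted exons.

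The 10 genes fall into families by the receptor they bind. Ccl2, Ccl7 and Ccl12 bind the monocyte receptor Ccr2. Ccl3 and Ccl4 attract monocytes and T cells, and Ccl3 binds Ccr1. Cxcl1 and Cxcl2 bind Cxcr2 on neutrophils, and Cxcl10, an interferon-induced chemokine, binds Cxcr3 on activated T cells. Cxcl12 binds Cxcr4 and the scavenging receptor Ackr3, and is displayed on brain endothelium, where it is known to hold lymphocytes at the vessel wall. Cx3cl1 (fractalkine) is made as a membrane-bound protein and binds Cx3cr1, which in the brain marks microglia.

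Promoters are shown for 4 members because 3 of them, Cxcl1, Cxcl2 and Cxcl10, rose together in endothelial cells of Tek-Cre:Lama5-/- mice, while Cxcl12 did not. These 4 were chosen after their changes were seen. The sequences come from RefSeq on GRCm38.p6, run 5′ to 3′ on the strand of the gene and span 250 bases before to 50 bases after the start. Capitals mark matches to the kappaB motif, which NF-kappaB binds.
Cxcl1: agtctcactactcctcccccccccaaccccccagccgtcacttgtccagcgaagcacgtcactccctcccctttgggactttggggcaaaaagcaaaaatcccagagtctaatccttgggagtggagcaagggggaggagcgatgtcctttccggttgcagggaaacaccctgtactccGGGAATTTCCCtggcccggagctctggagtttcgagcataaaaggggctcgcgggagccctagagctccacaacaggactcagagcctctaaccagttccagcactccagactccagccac
Cxcl2: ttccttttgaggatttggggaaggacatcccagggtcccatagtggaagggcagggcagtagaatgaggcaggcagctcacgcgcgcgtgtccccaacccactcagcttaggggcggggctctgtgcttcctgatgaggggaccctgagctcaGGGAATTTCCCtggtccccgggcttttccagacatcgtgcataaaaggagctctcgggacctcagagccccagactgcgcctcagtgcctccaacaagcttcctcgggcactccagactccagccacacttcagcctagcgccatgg
Cxcl10: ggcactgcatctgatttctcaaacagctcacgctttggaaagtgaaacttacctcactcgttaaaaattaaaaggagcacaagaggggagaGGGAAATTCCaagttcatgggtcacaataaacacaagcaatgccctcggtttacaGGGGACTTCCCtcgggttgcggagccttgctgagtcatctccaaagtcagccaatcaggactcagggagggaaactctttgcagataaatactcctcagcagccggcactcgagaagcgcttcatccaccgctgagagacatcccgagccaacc
Cxcl12: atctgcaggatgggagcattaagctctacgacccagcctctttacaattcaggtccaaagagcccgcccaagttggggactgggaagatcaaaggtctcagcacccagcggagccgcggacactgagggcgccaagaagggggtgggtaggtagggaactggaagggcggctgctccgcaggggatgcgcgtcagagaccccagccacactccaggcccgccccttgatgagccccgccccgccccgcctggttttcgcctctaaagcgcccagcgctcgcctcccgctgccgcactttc

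These windows lie at chr5:90890995-90891294 (plus strand) for Cxcl1, chr5:90903649-90903948 (plus) for Cxcl2, chr5:92348840-92349139 (minus) for Cxcl10 and chr6:117168285-117168584 (plus) for Cxcl12. The Cxcl1 and Cxcl2 windows each held 1 kappaB stretch, with the same letters, between positions -71 and -61 and between -97 and -87 from the start. The Cxcl10 window held 2, at -159 to -150 and at -104 to -94, together with 1 core of the interferon response element (GAAANNGAAA, searched on both strands) and 1 AP-1 match (TGANTCA). Of the 7 members with a promoter in the table, Ccl3, Ccl12, Cxcl12 and Cx3cl1 held no match to any of these 3 motifs. Ccl2, Ccl4 and Ccl7 were the other members. Without a match, Ccl3 and Cx3cl1 were also called higher in endothelial cells of Tek-Cre:Lama5-/- mice, by 0.33 and 0.19 on the log2 scale. Ccl4, which has no promoter here, rose there as well. Among 32851 promoters of the same length in the table, 8.46% held a kappaB match, 3.44% the interferon core and 7.81% the AP-1 motif. A match describes letters in the window and does not show that a factor was bound.

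On GRCm38, in the GENCODE annotation, Ccl2 (82035571 to 82037453), Ccl7 and Ccl12 lie together on the plus strand of chromosome 11, with gaps of 8.3 kb between Ccl2 and Ccl7 and 54.3 kb between Ccl7 and Ccl12. Ccl3 and Ccl4 lie 13.2 kb apart further along the same chromosome, on opposite strands. Cxcl1 and Cxcl2 are neighbours on chromosome 5 with a gap of 10.8 kb, and Cxcl10 is on the same chromosome. All 10 are protein-coding, and no pair of members shared a stretch of 31 bases in their annotated transcripts. Ccl2 overlaps Gm17268 and Cxcl10 overlaps Art3, both on the opposite strand, and whether counting used the strand is not given in the sources used here.

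The chemokines divided between a macrophage set and a vessel set, as the map of median levels by class shows. Levels here are CPM of the UMIs of a class in a library, given as the lowest, median and highest over libraries with at least 20 cells of the class, and levels are compared between classes for 1 gene at a time. Members of the Ccr2 group were highest in perivascular macrophages, the macrophages of the space around brain vessels. Ccl2 there was 1711, 1835 and 2657 CPM over 7 libraries, above the next class without overlap. Monocytes and dendritic cells had a median of 401 CPM (3 libraries) and microglia 213 CPM (123 to 298), and these 2 classes overlapped. Ccl7 was 961, 1384 and 1988 CPM in perivascular macrophages and 2.87, 11.7 and 37.4 CPM in microglia. Ccl12 was 522, 987 and 1671 CPM in perivascular macrophages and 68.1, 98.7 and 133 CPM in microglia. Because microglia were far more numerous, they held a median of 54.3% of all Ccl12 UMIs of a library and 46.3% of those of Ccl2, against 7.23% of those of Ccl7.

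**Figure D1:**
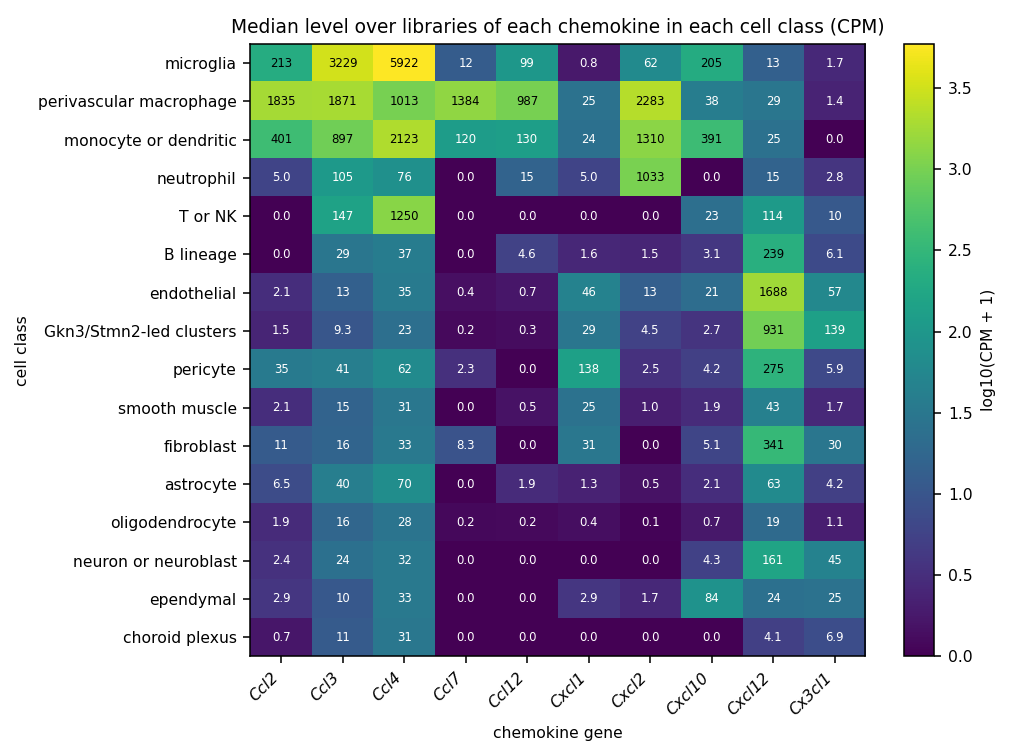
Median CPM over libraries (number in each cell, colour on a log10(CPM + 1) scale) of each chemokine gene (columns) in each cell class (rows), from libraries with at least 20 cells of the class. Each column is to be read down: Ccl4 peaks in microglia at 5922, Ccl7 in perivascular macrophages at 1384 and Cxcl12 in endothelial cells at 1688.

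Ccl3 and Ccl4 were microglial. Ccl4 was 4722, 5922 and 6086 CPM in microglia, above every other class without overlap, and microglia held 90.1% to 95.1% of its UMIs. Ccl3 was 2580, 3229 and 3471 CPM in microglia and 1326, 1871 and 2699 CPM in perivascular macrophages, and these ranges overlapped. Perivascular macrophages also carried RNA of the 8 microglia markers, which summed to 2983 to 4817 CPM there and to 13733 to 23550 CPM in microglia. After each cell was thinned to 1000 UMIs, which 45850 cells allowed, a median of 67.5% of microglia had a Ccl4 UMI. Oligodendrocytes, which are not known to make Ccl4, had 3.31% and endothelial cells 4.23%, so that these shares were close. The source of the Ccl4 RNA in these classes was not tested. Ccl3 and Ccl4 were often in the same microglia: in the 7 libraries 74.6% to 81.8% of thinned cells with Ccl3 also had Ccl4, against 32.2% to 49.7% of cells without Ccl3. In perivascular macrophages 46.2% to 67.3% of cells with Ccl2 had Ccl7, against 7.41% to 25% of cells without it. Cells that differ in total RNA or quality also differ in all such shares, and this was not tested.

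Cxcl2 and Cxcl1, though neighbours in the genome and ligands of one receptor, were found in different classes. Cxcl2 was highest in myeloid cells: 503, 2283 and 3723 CPM in perivascular macrophages, a median of 1310 CPM in monocytes and dendritic cells (3 libraries) and 1033 CPM in neutrophils (2 libraries), with overlap between neighbours in this order. In endothelial cells it was 5.39, 12.9 and 23.6 CPM. Cxcl1 was highest in pericytes, the contractile cells wrapped around capillaries, at 18.5, 138 and 627 CPM, but endothelial cells, at 27.4, 46.0 and 78.6 CPM, held a median of 73.3% of its UMIs. Pericytes, endothelial cells and the classes next in order overlapped. In the first WT library of Tek-Cre:Lama5-/-, pericytes (18.5 CPM) lay below endothelial cells (49.8 CPM), and with the stricter cell filter fibroblasts had the highest median. In microglia Cxcl1 was 0.27, 0.80 and 3.23 CPM.

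Within the pericytes Cxcl1 was highest in 1 cluster of 170 cells, led by Vtn, Rgs5, Ifitm1 and the collagen gene Col3a1. It held a median of 1183 CPM of Cxcl1 (806 to 1941, 4 libraries) and 306 CPM of Ccl2, against 9.48 and 16.7 CPM in the other pericyte cluster of 1368 cells. The Col3a1 cluster made up 17.9% and 15.6% of pericytes in the WT of Lama4-/- but 4.38% and 3.41% in the WT of Tek-Cre:Lama5-/-.

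Cxcl10 was carried by few cells of several classes. Microglia had 141, 205 and 286 CPM and held a median of 56.7% of its UMIs. Endothelial cells had 11.1, 21.1 and 33.1 CPM and held a median of 33.9%. Monocytes and dendritic cells had a median of 391 CPM and ependymal cells one of 84.0 CPM, and both ranges overlapped that of microglia. With doublets kept, or with chemokine genes used in the clustering, the monocyte median was 60.7 and 55.1 CPM, and microglia were then highest. Between 5.66% and 13.6% of microglia had a Cxcl10 UMI. Single microglia held up to 186 UMIs.

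Among the cells kept, most UMIs of Cxcl12 and of Cx3cl1 lay in vessel cells. Cxcl12 was 1453, 1688 and 2508 CPM in endothelial cells, above all other classes without overlap, and endothelial cells held 76.0% to 93.9% of its UMIs. Fibroblasts (median 341 CPM) and pericytes (275 CPM) also had Cxcl12. Cx3cl1, which was 50.7, 56.7 and 63.5 CPM in endothelial cells, was higher without overlap in 3 further vessel clusters, at 124, 139 and 166 CPM. These 3 clusters, here called the Gkn3/Stmn2 clusters, had endothelial markers and all held Sema3g and Stmn2 among their leading genes, with Gkn3 first in 2 of them and Nov in the other. They were given no class name because Stmn2 is also a marker of neurons. Gkn3 and Sema3g are known from arterial endothelium, and they also led 1 cluster of 1428 cells that stayed in the endothelial class. One neuron cluster of 170 cells, led by Meg3 and Snap25, reached a median of 231 CPM of Cx3cl1 (59.7 to 290, 4 libraries). The highest median of a vessel cluster was 167 CPM (146 to 188). With doublets kept, neurons and neuroblasts had the highest Cx3cl1 of the named classes.

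Within the endothelium the chemokines followed opposite patterns, as the plot of vessel clusters shows. Cxcl12 was highest in a cluster led by Ctla2a and Srarp, at 3102, 3594 and 4468 CPM. It was lowest in 2 clusters with Slc38a5 and Tmem252 among their leading genes, here called the clusters led by Slc38a5, at medians of 314 CPM (5 libraries) and 184 CPM (4 libraries), and was 356 CPM in a cluster led by Gkn3 and Mgp. Lcn2 and Vwf, which are among the leading genes of the cluster of least Cxcl12, are known from veins and venules. Slc38a5 was also among the leading genes of 2 clusters with Cxcl12 medians of 2401 and 2929 CPM. In the 2 clusters led by Slc38a5, which hold the least Cxcl12, Cxcl1 had medians of 136 and 103 CPM, Cxcl10 of 53.7 and 51.0 CPM and Cxcl2 of 33.0 and 31.7 CPM. In the cluster with the most Cxcl12, the medians of these 3 genes were 2.83, 1.19 and 0 CPM. The 2 clusters led by Slc38a5 held 9.34% to 16.25% of endothelial cells in the 7 libraries.

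**Figure D2:**
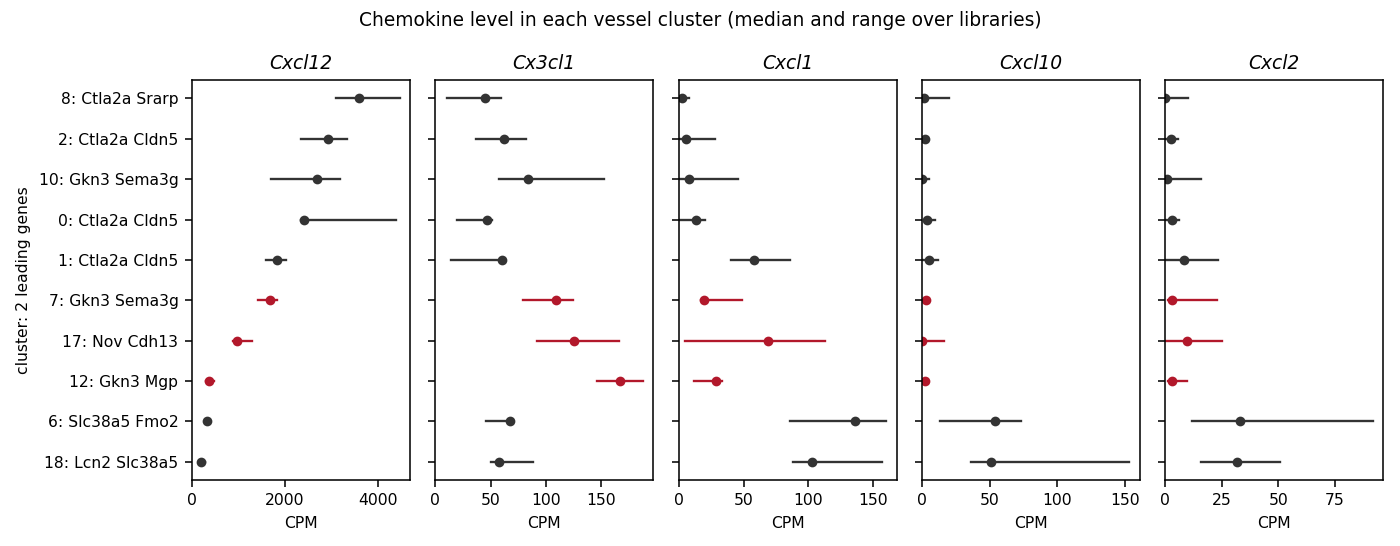
Level in CPM (horizontal axes, one per gene) of 5 chemokines in each of the 10 vessel clusters (rows, with 2 leading genes), as the median (point) and range (line) over libraries with at least 20 cells; red marks the 3 Gkn3/Stmn2 clusters and dark grey the endothelial class. Cxcl12 falls from 3594 in the top row to 184 in the bottom row, where Cxcl1 stands at 103.

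The receptors described here were highest in other classes than their ligands. Microglia had the highest Cx3cr1 (1763, 2348 and 2438 CPM). Ccr2 was highest in monocytes and dendritic cells, with a median of 366 CPM, and was 2.09 CPM in microglia. Cxcr2 had a median of 646 CPM in neutrophils and under 1 CPM in microglia and endothelial cells. Ackr3, which removes Cxcl12, was highest in pericytes (291, 326 and 390 CPM), then in smooth muscle (median 230 CPM) and endothelial cells (103 CPM). Cxcr4 was highest in monocytes and dendritic cells (276 CPM).

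The genes whose class pattern was most like a member's were found by Pearson's r of log2(CPM + 1) over the means of 16 classes, among 14359 genes, as a description. Ccl3 was closest to Tnf (r = 0.982), a cytokine gene, and to Ccl4 (0.972), and Ccl4 was closest to Tagap (0.977). Ccl2 was closest to Ccl7 (0.893), Ccl12 to the macrophage gene Adgre1 (0.964) and Cxcl2 to Igsf6 (0.955). Cxcl12 was closest to Emcn (0.970), the gene of an endothelial sialomucin, and Cx3cl1 to Samd12 (0.900). Ccl7 was closest to A130077B15Rik (0.969), Cxcl1 to Cp (0.834), which encodes ceruloplasmin, and Cxcl10 to Slc16a10 (0.862). Classes share libraries, and depth differed between classes.

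In Tek-Cre:Lama5-/- mice, Cxcl1, Cxcl2, Cxcl10 and Ccl4 rose in endothelial cells and Ccl4, Cxcl1 and Cxcl2 in perivascular macrophages, while Cxcl2 and Cxcl10 fell in microglia. The endothelial level of Ccl4 was near that of oligodendrocytes (medians of 34.5 and 27.7 CPM), and the source of that RNA was not tested. UMIs were summed per class and library for 6 classes, those of which each library held 50 cells or more, and tested with edgeR's quasi-likelihood test over all genes of the class. Values per library are scaled CPM, with edgeR's TMM factors. In bulk sums of a class, fewer cells with a transcript and less of it per cell cannot be told apart.

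**Figure D3:**
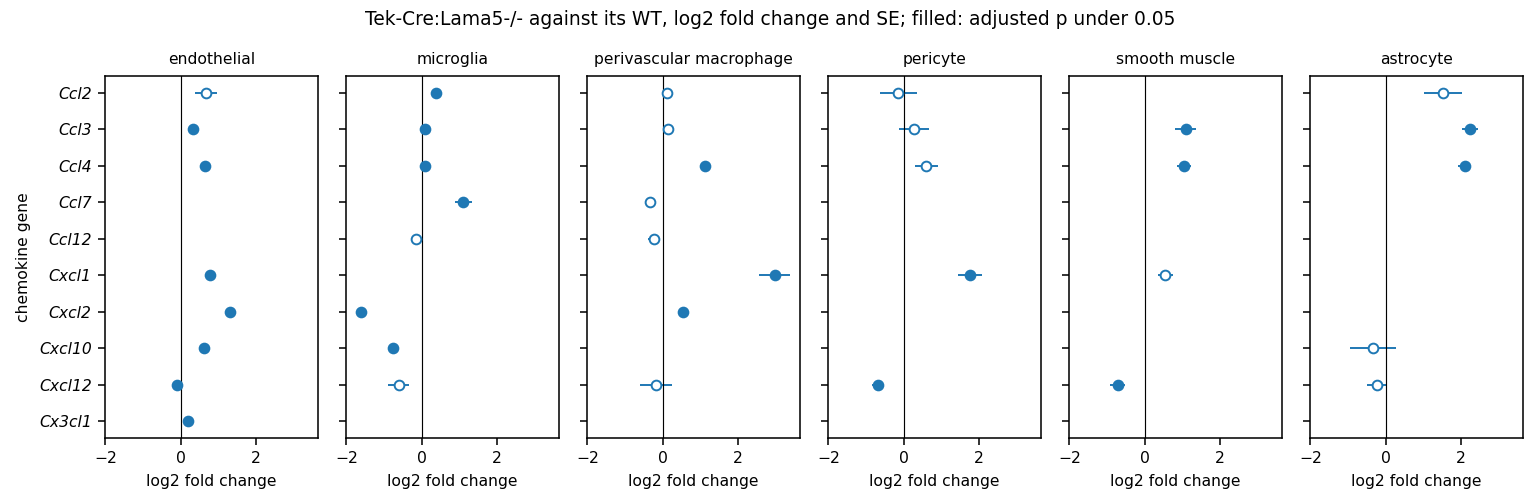
Log2 fold change of each chemokine (rows) in Tek-Cre:Lama5-/- against its WT in 6 cell classes (panels). The bar is the SE, taken as the size of the change divided by the square root of edgeR's F statistic. Filled points have an adjusted p under 0.05. Missing points did not pass the filter on low counts; Cxcl2 lies at 1.30 in endothelial cells and at -1.61 in microglia.

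In endothelial cells 8 of the 10 members passed the filter on low counts, of which 6 rose and 1 fell, where 18.4% of all 12738 genes tested were called. Their median log2 fold change was 0.63, against -0.001965 over all genes tested. Cxcl2 was 9.41 and 7.69 scaled CPM in WT and 24.2 and 17.7 in Tek-Cre:Lama5-/-, and the groups did not overlap. It rose by 1.30 on the log2 scale (SE 0.11, adjusted p = 2.15e-17). Cxcl1 was 48.5 and 44.8 in WT and 80.5 and 80.2 in Tek-Cre:Lama5-/-. It rose by 0.79 (SE 0.05, adjusted p = 5.33e-24). Cxcl10 was 20.97 and 20.58 in WT and 33.9 and 29.4 in Tek-Cre:Lama5-/-, a rise of 0.61 (SE 0.08, adjusted p = 3.12e-10).

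The 2 clusters led by Slc38a5 held 14.9% and 16.25% of endothelial cells in WT and 16.05% and 14.8% in Tek-Cre:Lama5-/-, and the shares overlapped. Tested within those 2 clusters, a choice made after seeing the data, Cxcl2 rose by 1.15 (SE 0.13, adjusted p = 4.76e-09), Cxcl1 by 0.70 (SE 0.07, adjusted p = 3.94e-11) and Cxcl10 by 0.45 (SE 0.08, adjusted p = 0.000121). In the other endothelial clusters the rises were 1.51, 0.84 and 1.29, with adjusted p = 3.79e-13, 2.03e-17 and 4.70e-07.

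Of the remaining endothelial members, Cxcl12 and Cx3cl1 changed less and Ccl2 did not pass the test. Cxcl12 was 1645 and 1544 scaled CPM in WT and 1487 and 1514 in Tek-Cre:Lama5-/-, a fall of 0.09 (SE 0.02, adjusted p = 0.000174). That call was lost with DESeq2, without the first WT library and without the 2 clusters led by Slc38a5. Cx3cl1 was 57.0 and 55.2 in WT and 65.0 and 62.7 in Tek-Cre:Lama5-/-, a rise of 0.19 (SE 0.05, adjusted p = 0.00370), which was lost under 6 of 15 alternatives. Ccl2 was 1.07 and 1.85 in WT and 2.15 and 2.53 in Tek-Cre:Lama5-/-, with a log2 fold change of 0.67 (SE 0.30, adjusted p = 0.110).

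Ccl4 in endothelial cells was 22.6 and 23.6 scaled CPM in WT and 36.9 and 35.7 in Tek-Cre:Lama5-/-, a rise of 0.65 (SE 0.07, adjusted p = 1.63e-12). Ccl3 there rose by 0.33 (SE 0.11, adjusted p = 0.0196), a call lost under 4 of 15 alternatives. Microglia markers rose beside them: 5 of 8 were called higher in endothelial cells and none lower, with a median log2 fold change of 0.41, and their summed level was 93.2 and 90.2 CPM in WT and 115 and 118 CPM in Tek-Cre:Lama5-/-. None of the 8 was at 0. Microglia made up 7.45% and 6.95% of cells in WT and 13.5% and 12.4% in Tek-Cre:Lama5-/-. The part of microglial RNA in the endothelial Ccl3 and Ccl4 was not tested.

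In the Gkn3/Stmn2 clusters, tested as a class of their own after seeing the data, 7.69% of 10911 genes were called. Cxcl12 was 1249 and 1224 CPM in WT and 1048 and 931 CPM in Tek-Cre:Lama5-/-, a fall of 0.24 (SE 0.04, adjusted p = 2.48e-06). The joined clusters differed in Cxcl12, with medians over libraries of 1679, 963 and 356 CPM. The part of their mixture in this fall was not tested. Ccl4 rose by 0.70 (SE 0.15, adjusted p = 0.00106). The microglia markers there summed to 75.6 and 84.8 CPM in WT and 105 and 99.96 CPM in Tek-Cre:Lama5-/-, and the part of microglial RNA in this rise was not tested. Cx3cl1, at 138 and 139 CPM in WT and 124 and 126 CPM in Tek-Cre:Lama5-/-, had a log2 fold change of -0.07 (SE 0.06, adjusted p = 0.586). Cxcl1 had one of -0.02 (adjusted p = 0.966), and Cxcl2 one of 0.63 (adjusted p = 0.246).

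Microglia moved differently for the same genes, where 8 members were tested, 4 rose and 2 fell, and 14.2% of 9560 genes were called. Cxcl2 was 154 and 107 scaled CPM in WT and 33.2 and 54.2 in Tek-Cre:Lama5-/-, and fell by 1.61 on the log2 scale (SE 0.13, adjusted p = 3.75e-15). Few cells carried it: 23 of 594 and 21 of 552 microglia in WT, and 25 of 1047 and 29 of 990 in Tek-Cre:Lama5-/-. One WT cell alone held 128 of that library's 322 UMIs. Without the cell of most UMIs in each library, Cxcl2 was 94.5 and 90.3 CPM in WT and 16.9 and 42.7 CPM in Tek-Cre:Lama5-/-. Cxcl10 was 281 and 247 scaled CPM in WT and 163 and 146 in Tek-Cre:Lama5-/-, a fall of 0.77 (SE 0.07, adjusted p = 8.07e-13). Of WT microglia 11.4% and 9.24% had a Cxcl10 UMI, and of Tek-Cre:Lama5-/- microglia 7.35% and 5.66%; after thinning the shares were 5.70% and 5.70% against 4.87% and 3.49%.

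Of the Ccr2 ligands, Ccl2 and Ccl7 rose in microglia and Ccl12 did not pass the test. Ccl2 was 222 and 207 scaled CPM in WT and 309 and 253 in Tek-Cre:Lama5-/-, a rise of 0.39 (SE 0.07, adjusted p = 3.52e-05). Ccl7 was 11.5 and 19.1 in WT and 38.8 and 25.2 in Tek-Cre:Lama5-/-, a rise of 1.11 (SE 0.22, adjusted p = 0.000139). It had a UMI in 7 of 594 and 6 of 552 WT microglia and in 38 of 1047 and 29 of 990 Tek-Cre:Lama5-/- microglia. Both calls were lost without the first Tek-Cre:Lama5-/- library, at adjusted p = 0.0938 for Ccl2 and 0.0552 for Ccl7. DESeq2 gave no adjusted p for Ccl7 (unadjusted p = 0.00415). Ccl12 had a log2 fold change of -0.15 (SE 0.12, adjusted p = 0.448).

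The abundant microglial chemokines changed little. Ccl3 was 3048 and 3176 scaled CPM in WT and 3329 and 3346 in Tek-Cre:Lama5-/-, a rise of 0.10 (SE 0.03, adjusted p = 0.0283), and Ccl4 was 5593 and 5925 against 6198 and 6059, a rise of 0.09 (SE 0.03, adjusted p = 0.0419). Both were lost with DESeq2 and without single libraries, Ccl4 under 8 of 13 alternatives.

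Whether the change differed between classes was tested after seeing the data, in 1 edgeR fit over the classes with the library as a block, for 2 pairs of classes. Between endothelial cells and microglia, where 6.86% of 9183 genes were called, the change of Cxcl2 differed by 2.91 on the log2 scale (SE 0.20, adjusted p = 2.38e-12) and that of Cxcl10 by 1.39 (SE 0.11, adjusted p = 1.01e-11). Ccl4 differed by 0.57 (SE 0.08, adjusted p = 3.05e-06), and the part of microglial RNA in the endothelial Ccl4 was not tested. Between perivascular macrophages and microglia, where 0.127% of 3159 genes were called, Cxcl2 differed by 2.17 (SE 0.21, adjusted p = 1.28e-06) and Ccl4 by 1.10 (SE 0.13, adjusted p = 1.15e-05). Ccl7, which rose in microglia, differed between these classes by -1.36 (SE 0.30, adjusted p = 0.0620).

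**Figure D4:**
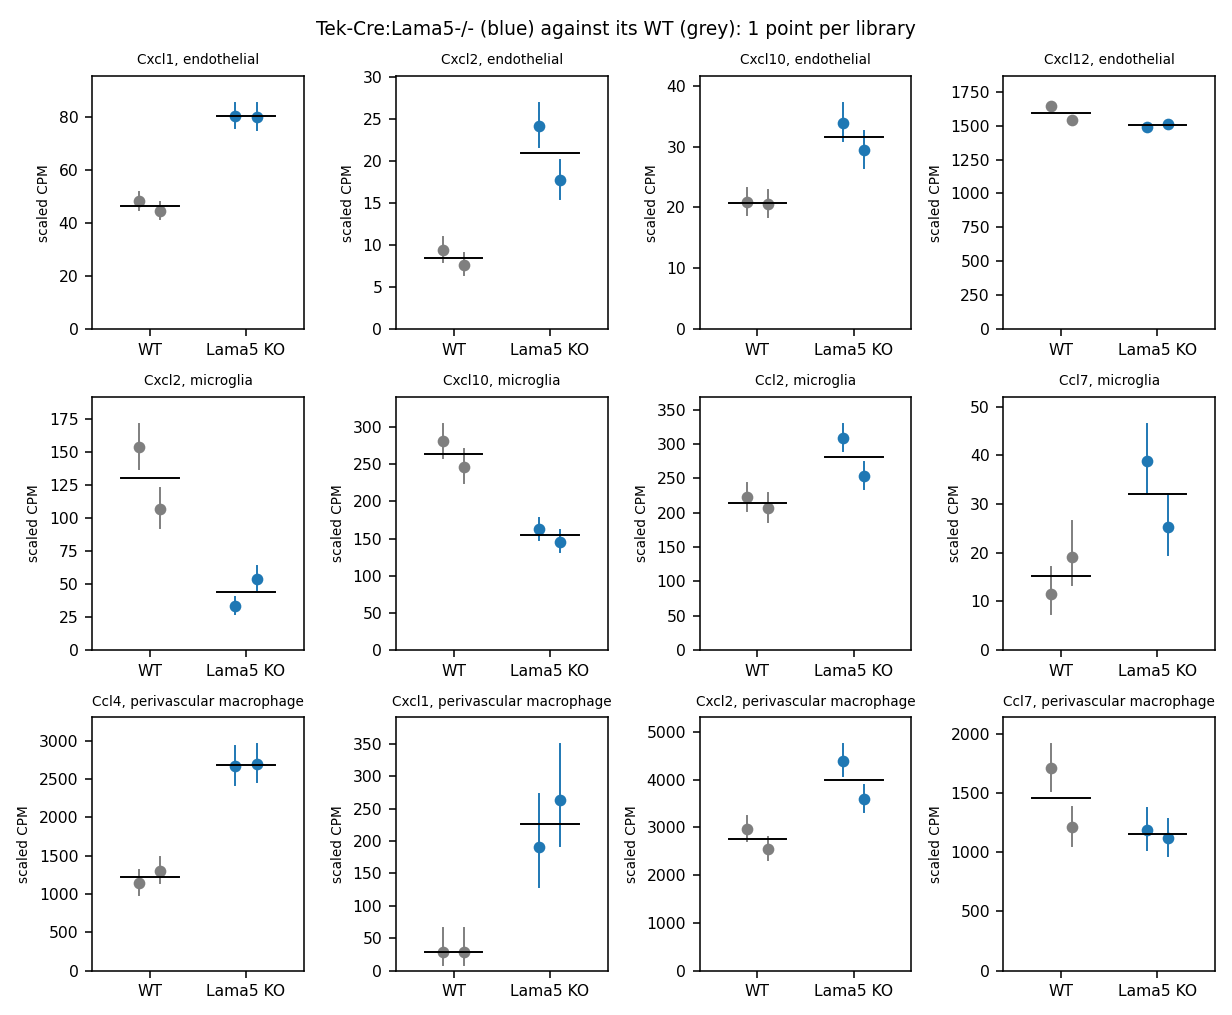
Scaled CPM (vertical axes, from 0) of 12 pairs of chemokine and class in the WT (grey) and Tek-Cre:Lama5-/- libraries (blue); each point is a library, its bar the 95% Poisson interval for counting error and the black line the group mean. In endothelial cells Cxcl2 is 24.2 and 17.7 in Tek-Cre:Lama5-/- above 9.41 and 7.69 in WT, and in microglia 33.2 and 54.2 below 154 and 107.

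In perivascular macrophages, with 51 to 69 cells in each of these libraries, 8 members were tested and 3 rose, where 1.24% of 3219 genes were called. Ccl4 was 1138 and 1305 scaled CPM in WT and 2666 and 2698 in Tek-Cre:Lama5-/-, a rise of 1.13 (SE 0.13, adjusted p = 1.49e-14). The microglia markers did not rise beside it: none of 6 tested was called, their median log2 fold change was -0.24, and they summed to 3401 and 4342 CPM in WT and to 3259 and 2983 CPM in Tek-Cre:Lama5-/-. Tmem119 was at 0 in one Tek-Cre:Lama5-/- library and Sall1 in the other. After thinning, 16 of 50 and 20 of 53 WT perivascular macrophages had a Ccl4 UMI, against 20 of 54 and 27 of 67 in Tek-Cre:Lama5-/-. These shares overlapped and showed no clear rise in cells with Ccl4, and their difference was not tested. Cxcl2 was 2968 and 2553 scaled CPM in WT and 4400 and 3603 in Tek-Cre:Lama5-/-, a rise of 0.53 (SE 0.11, adjusted p = 0.000156). Cxcl1 was 28.2 and 28.4 in WT and 191 and 263 in Tek-Cre:Lama5-/-, a rise of 2.98 (SE 0.42, adjusted p = 2.98e-09). The Cxcl1 counts were small, with 5 and 5 UMIs in WT and 30 and 47 in Tek-Cre:Lama5-/-, of which 17 in each of the latter came from 1 cell.

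Without the first Tek-Cre:Lama5-/- library all 3 calls in perivascular macrophages were lost, with adjusted p = 0.287 for Ccl4, 0.260 for Cxcl1 and 0.855 for Cxcl2, at log2 fold changes of 1.17, 3.21 and 0.41. Only 1 gene of the class was then called. Cxcl2 was also lost with DESeq2 and with a stricter cell filter. Ccl2 was 1920 and 2020 scaled CPM in WT and 2168 and 2083 in Tek-Cre:Lama5-/- (log2 fold change 0.11, SE 0.12, adjusted p = 0.865). Ccl7 had a log2 fold change of -0.34 (SE 0.14, adjusted p = 0.292), Ccl12 one of -0.24 (SE 0.16, adjusted p = 0.632) and Ccl3 one of 0.15 (SE 0.11, adjusted p = 0.728).

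In pericytes, where 0.777% of 6308 genes were called, Cxcl1 was 19.05 and 48.2 scaled CPM in WT and 83.6 and 150 in Tek-Cre:Lama5-/-, a rise of 1.76 (SE 0.33, adjusted p = 0.00144). The Col3a1 cluster made up 4.38% and 3.41% of WT pericytes and 3.23% and 11.98% of Tek-Cre:Lama5-/- pericytes. Outside it lay 7 of the 8 and 4 of the 21 Cxcl1 UMIs of the WT libraries and 12 of the 34 and 10 of the 56 of the Tek-Cre:Lama5-/- libraries. Without that cluster the log2 fold change was 1.14 (adjusted p = 0.478), and the call was also lost with DESeq2, with doublets kept and without the second Tek-Cre:Lama5-/- library. Cxcl12 in pericytes was 348 and 312 in WT and 192 and 220 in Tek-Cre:Lama5-/-, a fall of 0.68 (SE 0.16, adjusted p = 0.0213). This call was lost under 8 of 13 alternatives, and the direction turned, to 0.07, with doublets kept.

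In smooth muscle, where 4.86% of 9661 genes were called, Cxcl12 was 57.7 and 90.4 scaled CPM in WT and 55.4 and 34.0 in Tek-Cre:Lama5-/-, a fall of 0.72 (SE 0.20, adjusted p = 0.0379) that was lost under 4 of 11 alternatives. Ccl3 and Ccl4 rose there, by 1.09 (adjusted p = 0.0290) and 1.04 (adjusted p = 0.00145). The Ccl4 call held under all 11 alternatives that gave an adjusted p, and the Ccl3 call was lost under 2 of 11. DESeq2 gave no adjusted p for the chemokines of this class, and its unadjusted p was 0.120 for Cxcl12, 0.0242 for Ccl3 and 0.00140 for Ccl4. In astrocytes, where 8.38% of 8771 genes were called, they rose by 2.24 (adjusted p = 1.22e-11) and 2.10 (adjusted p = 3.80e-12). Microglia markers were higher beside both: in astrocytes 7 of 8 were called higher, with a median of 1.67 and a summed level of 302 and 317 CPM in WT and 1004 and 820 CPM in Tek-Cre:Lama5-/-. In smooth muscle 1 of 8 was called, with a median of 0.81 and a summed level of 80.4 and 76.6 CPM against 114 and 119 CPM. None of the 8 markers was at 0 in either class. The part of microglial RNA in these rises was not tested, and with doublets kept both astrocyte calls were lost.

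Of 21 chemokine receptor genes on the list, 8 were tested in endothelial cells, where 2 rose and 2 fell beside 18.4% of all genes called. Of 5 tested in microglia 3 fell (14.2% called), of 4 in smooth muscle 1 fell (4.86%) and of 3 in astrocytes 1 rose (8.38%), and none of 3 each in pericytes and perivascular macrophages was called. In endothelial cells Ackr3 fell by 0.40 (SE 0.04, adjusted p = 1.01e-14), and it also fell in smooth muscle, by 0.58 (SE 0.09, adjusted p = 0.000186). Endothelial Ackr1, which binds and carries many inflammatory chemokines across venules, rose by 1.41 (SE 0.26, adjusted p = 1.48e-05), and Cxcr4 rose by 1.10 (SE 0.36, adjusted p = 0.0200). The endothelial median of Cxcr4 was only 0.83 CPM over 7 libraries, below those of oligodendrocytes (1.15 CPM) and smooth muscle (1.40 CPM). The source of this Cxcr4 RNA was not tested. In microglia Cx3cr1 fell by 0.31 (SE 0.04, adjusted p = 3.07e-10), while 6 of the 8 microglia markers were also called lower, with a median log2 fold change of -0.15. Ccrl2, an atypical receptor, fell in microglia by 1.16 (SE 0.10, adjusted p = 2.93e-14) and in endothelial cells by 0.27 (adjusted p = 0.00707). The receptor called higher in astrocytes was Cx3cr1, itself a microglia gene, at 1.85 (adjusted p = 2.06e-06), beside the microglia markers given above.

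Genes of the pathways that induce chemokines were described by lists. Of 21 NF-kB response genes, 20 were tested in endothelial cells, where 7 rose and none fell (median log2 fold change 0.26), beside 18.4% of all genes called in either direction. Ptgs2, a prostaglandin synthase, rose by 1.08 (SE 0.06, adjusted p = 2.71e-27) and Tnfaip3, an inhibitor of NF-kB, by 0.47 (SE 0.06, adjusted p = 2.90e-10). In microglia, where 14.2% of all genes were called, 2 rose and 6 fell (median -0.15), and Nfkbia, the NF-kB inhibitor, fell by 0.76 (SE 0.04, adjusted p = 5.74e-24). Of 13 interferon response genes tested in endothelial cells, 7 fell and 1 rose, again beside 18.4% of all genes, and Rsad2 fell by 0.37 (SE 0.04, adjusted p = 1.19e-12). Of 24 other chemokine genes, 6 were tested in endothelial cells, where Cxcl14 and Pf4 fell. Of 10 genes of enzymes and scaffolds acting on chemokines, 8 were tested in endothelial cells, where Sdc4, a heparan sulfate proteoglycan, rose and the protease gene Dpp4 fell.

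Immediate early and heat shock genes, which tissue digestion is known to induce along with several of these chemokines, moved as well. Of 16 such genes, 10 fell and 2 rose in microglia (median -0.31, with 14.2% of all genes called), 7 fell and none rose in perivascular macrophages (median -0.46, with 1.24% called), and 8 fell and 4 rose in endothelial cells (median -0.05, with 18.4% called). In smooth muscle 5 fell and 3 rose (median -0.03, with 4.86% called). Of 15 tested in each of the other classes, 1 fell and 4 rose in astrocytes (median 0.30, with 8.38% called) and 5 fell and 4 rose in pericytes (median 0.06, with 0.777% called). Fos fell by 0.33 in microglia and by 0.73 in perivascular macrophages, and Fosb rose by 0.24 in endothelial cells. The part of this response in the chemokine changes was not tested.

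In Lama4-/- mice 25 of 44 pairs of chemokine and class stood below both WT libraries and 11 above both, where 36.4% of all 63479 pairs of gene and class stood below both and 36.9% above both, and few chemokines passed the fold rule. A gene was past the fold where its log2 ratio to the WT mean, with 0.5 CPM added to each, was at least 1 in size, both WT libraries lay on one side and the 95% Poisson intervals did not meet. Those intervals cover counting error only, and 1 library has no replicate check.

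In endothelial cells Cxcl2 and Ccl2 were past the fold, where 0.433% of 12702 genes were. Cxcl2 was 14.7 and 12.95 scaled CPM in WT and 5.28 in Lama4-/-, a log2 ratio of -1.31. It had a UMI in 51 of 2171 and 50 of 2026 WT cells and in 15 of 2259 Lama4-/- cells, and 1 cell held 21 of the 79 Lama4-/- UMIs. Within the 2 clusters led by Slc38a5 the ratio was -1.23. Ccl2 was 2.80 and 2.49 in WT and 1.07 in Lama4-/-, a log2 ratio of -1.003, on 49, 39 and 16 UMIs. It was just past the rule, and among the alternatives stayed past it only without the second WT library. Endothelial Ccl2, with a median of 2.10 CPM over all 7 libraries, was near the levels of smooth muscle (2.11 CPM) and oligodendrocytes (1.93 CPM). The source of this RNA was not tested, and the Ccl2 ratio is not read as an endothelial change. Ccl3, at 25.8 and 22.9 in WT and 12.9 in Lama4-/-, was just short of it, with a ratio of -0.89. Cxcl10 had a ratio of -0.45 and Cxcl1 one of -0.25.

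Over the whole endothelial class Cxcl12 and Cx3cl1 were not past the fold in Lama4-/-. Cxcl12 was 2551 and 2384 scaled CPM in WT and 2410 in Lama4-/-, inside the WT range, and Cx3cl1 was 52.4 and 51.1 in WT and 53.0 in Lama4-/-. In the 2 clusters led by Slc38a5, Cxcl12 was 219 and 284.6 CPM in WT and 150.0 CPM in Lama4-/-, a log2 ratio of -0.80 that was not past the fold. In the Gkn3/Stmn2 clusters, where 0.22% of 10446 genes were past the fold, Cxcl1 (30.9 and 30.0 CPM in WT, 14.7 CPM in Lama4-/-) was past it, with a log2 ratio of -1.05, and Cx3cl1 had a ratio of 0.17. Ccl4, at 50.7 and 22.6 CPM in WT and 10.8 CPM in Lama4-/-, was past it as well. But these clusters had the lowest median of Ccl4 of all classes (22.6 CPM, against 27.7 CPM in oligodendrocytes). The microglia markers there summed to 172 and 119 CPM in WT and 107 CPM in Lama4-/-. The source of the Ccl4 RNA was not tested, and its ratio is not read as a change of these clusters. Cxcl12 there was 676 and 629 CPM in WT and 546 CPM in Lama4-/- (-0.28), not past the fold.

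**Figure D5:**
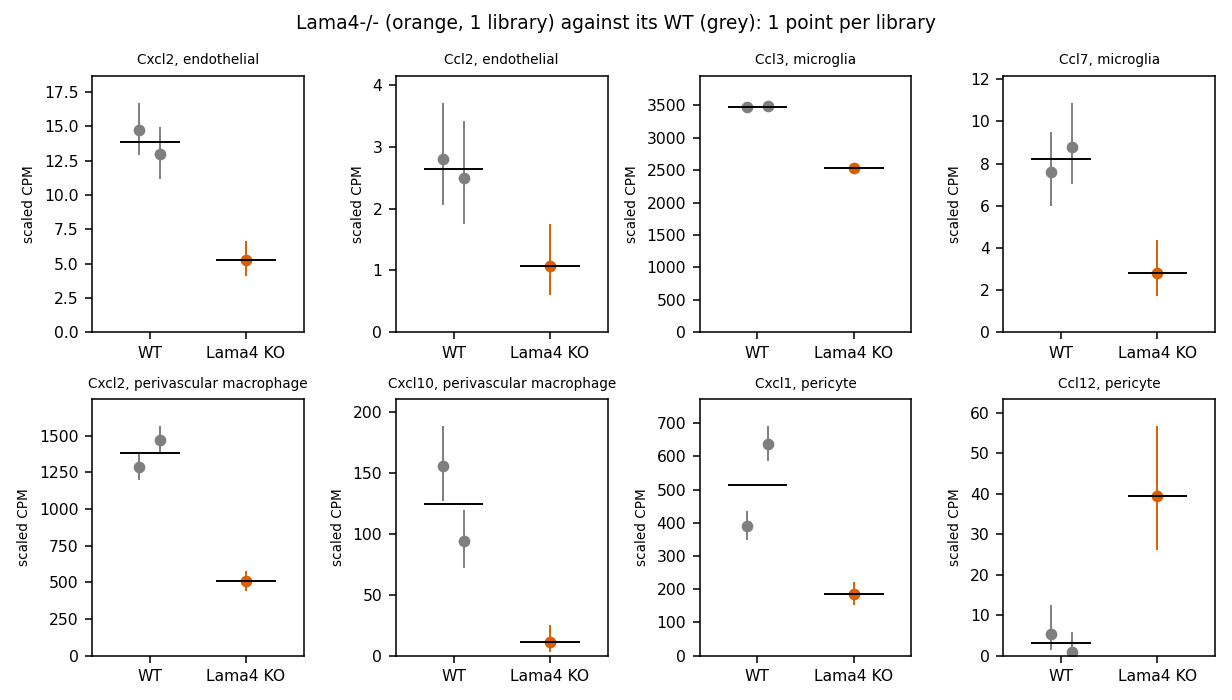
Scaled CPM (vertical axes, from 0) of 8 pairs of chemokine and class in the WT libraries (grey) and the 1 distinct Lama4-/- library (orange), each point with its 95% Poisson interval for counting error and the black line the group mean. Lama4-/- lies below both WT libraries in 7 panels, as for microglial Ccl3 with 2536 against 3472 and 3493, and above them for Ccl12 in pericytes.

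In microglia, where 0.577% of 12132 genes were past the fold, Ccl7 was the only member past it. It was 7.59 and 8.80 scaled CPM in WT and 2.82 in Lama4-/-, a log2 ratio of -1.39, on 81, 88 and 21 UMIs. Ccl3 was 3472 and 3493 in WT and 2536 in Lama4-/- (log2 ratio -0.46), and Ccl4 was 6009 and 5992 in WT and 4642 in Lama4-/- (-0.37). Ccl3 and Ccl4 thus lay below both WT libraries, which share a pool of mice, and neither was past the fold. Cxcl2 had a ratio of -0.70, Cxcl10 one of -0.27 and Ccl2 one of -0.18. The Lama4-/- library had a median of 5301 UMIs per cell over all classes, against 6606 and 6494 in WT, and 13.8% of its microglia lay in a microglia cluster of few UMIs against 7.78% and 7.17% in WT. Without that cluster Ccl3 and Ccl4 had ratios of -0.45 and -0.35 and Ccl7 one of -1.61. A further 53 microglia led by the antigen-presentation gene Cd74 were found only in the Lama4-/- library, and without them the ratios were -0.45, -0.37 and -1.33.

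In perivascular macrophages, where 1.05% of 7826 genes were past the fold, Cxcl2 and Cxcl10 were. Cxcl2 was 1287 and 1470 scaled CPM in WT and 506 in Lama4-/-, a log2 ratio of -1.44, and 39 of 127, 43 of 133 and 23 of 105 cells had a UMI of it. Cxcl10 was 155 and 93.5 in WT and 10.96 in Lama4-/-, a ratio of -3.45, but 54 of the 70 UMIs of the second WT library came from 1 cell, and without the cell of most UMIs in each library the counts were 80, 16 and 3. Ccl2 (-0.47), Ccl12 (-0.48), Ccl7 (-0.36) and Ccl3 (-0.21) were not past the fold. Ccl4, at 617 and 637 in WT and 769 in Lama4-/-, stood above both WT libraries with a ratio of 0.29, and Cxcl12 also had a ratio of 0.29, and neither was past the fold.

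In pericytes, where 0.397% of 9581 genes were past the fold, Cxcl1 was 389 and 637 scaled CPM in WT and 185 in Lama4-/-, a log2 ratio of -1.47. The Col3a1 cluster made up 17.9% and 15.6% of WT pericytes and 12.5% of Lama4-/- pericytes, and outside it Cxcl1 was at 4, 1 and 1 UMIs. Ccl12 was 5.29 and 1.00 in WT and 39.4 in Lama4-/- (ratio 3.45), but 26 of its 29 UMIs in Lama4-/- came from 1 cell. In smooth muscle (0.273% of 10608 genes) and astrocytes (0.151% of 10630 genes) no member was past the fold. Of the 6 classes, the median ratio of the members tested was lowest in perivascular macrophages (-0.47, against -0.00495 over all genes) and endothelial cells (-0.45, against 0.00292).

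The 2 experiments can be set side by side only by the side of their own WT on which the knockout libraries lay, without a test. Of 36 pairs of chemokine and class tested in both, 17 lay on opposite sides, where 20.7% of all 49417 pairs of gene and class did. In 15 of these 17 the chemokine was higher in Tek-Cre:Lama5-/- and lower in Lama4-/-, as in 10.5% of all pairs. Of these 15 pairs 4 are Ccl3 and Ccl4 in endothelial cells and smooth muscle, where their levels were near those of oligodendrocytes (medians over libraries of 13.2, 15.1 and 16.4 CPM for Ccl3 and 34.5, 30.6 and 27.7 CPM for Ccl4) and microglia markers were higher in Tek-Cre:Lama5-/- (median log2 fold changes 0.41 and 0.81). In Lama4-/- the medians of those markers were 0.03 and 0.06. Endothelial Ccl2 is another of the 15, at a median of 2.10 CPM. That was near smooth muscle (2.11 CPM) and oligodendrocytes (1.93 CPM), and the source of this RNA was not tested. Members of a class share their libraries, and genotype and experiment cannot be told apart.

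Of 12 interferon response genes tested in Lama4-/- microglia, 3 were past the fold and higher, beside 0.577% of all genes, among them Gbp2, with a ratio of 2.61, and Ifit2, with 1.82, while Cxcl10 was not past it. Of 7 chemokine receptor genes tested in endothelial cells, Ackr1 was past the fold and higher, with a ratio of 1.18, beside 0.433% of all genes. In pericytes, beside 0.397% of all genes, 1 of 13 NF-kB response genes tested was past it, the cytokine gene Il6 with -4.70. Of 4 other chemokine genes tested there, Ccl11, with -3.17, was lower and Pf4, with 2.93, higher. Perivascular macrophage markers in pericytes summed to 20.8 and 16.75 CPM in WT and 66.4 CPM in Lama4-/-. The Col3a1 cluster made up 17.9% and 15.6% of WT pericytes and 12.5% of Lama4-/- pericytes. The part of macrophage RNA or of that cluster in the Il6, Ccl11 and Pf4 ratios was not tested. The immediate early and heat shock list had a median of -0.41 in astrocytes, -0.38 in perivascular macrophages, -0.32 in pericytes, 0.01 in both microglia and endothelial cells and 0.08 in smooth muscle. In astrocytes and in perivascular macrophages 1 of its genes was past the fold and lower, and in the other 4 classes none was past it.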

How the data were processed

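Single-cell RNA of mouse cortex was measured in 8 samples, of which 7 were distinct. The deposited matrices hold UMI counts per gene and barcode, not normalized, made by the authors with Cell Ranger 3.1.0 per the file headers, and the submitters' processing notes name mm10 and Seurat 3.1. Barcodes with under 500 genes, over 15% mitochondrial UMIs or a high simulated-doublet score were dropped. Cells were clustered on 30 principal components of 2000 variable genes without chemokine, laminin and sex-linked genes (leidenalg 0.10.2, resolution 1), and classes were named from marker lists. Sums of counts per class and library were tested with edgeR 4.0.16 (quasi-likelihood, filterByExpr, TMM, Benjamini-Hochberg over all genes of a class), after a check on simulated counts. With 2 libraries a group, p-values measure only the spread between libraries of one pool. The SE given with an edgeR change is the size of that change divided by the square root of its F statistic. Named were all 10 members, list genes that are a receptor of a member or passed the test in the class where its member is highest (at most 8 per list), and of the 3 genes most like each member in class pattern the first. Other list genes, among them Ackr1, Ccrl2, Fos, Fosb, Nfkbia and those named for Lama4-/-, were chosen after their values were seen. The members and lists were chosen with earlier results of these data known. Alternatives were other scaling, filter, tool (DESeq2 1.42.0), replicate block, cell choice and single libraries left out. Promoters matched for 7 of 10 members. A few results are not reported here.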

Additional observations from a re-analysis of the deposited data

Results flagged for a closer look

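The change in Tek-Cre:Lama5-/- mice differed between cell classes. On the log2 scale the endothelial minus microglial difference was 2.91 for Cxcl2, 1.39 for Cxcl10 and 0.57 for Ccl4, and the perivascular macrophage minus microglial difference was 2.17 for Cxcl2 and 1.10 for Ccl4, each past the adjusted threshold of the edgeR fit. Microglia markers were higher in endothelial cells beside Ccl4, with 5 of 8 called and a median of 0.41. The part of microglial RNA in the endothelial Ccl4 was not tested.

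The knockouts moved in opposite directions, with all libraries of each on opposite sides of their own WT, in 17 of 36 pairs of chemokine and class, against 20.7% of all 49417 pairs of gene and class tested in both. The others had the same direction in 6 pairs and overlapping libraries in 13. This difference was not tested, since Lama4-/- is 1 distinct library, and 2 of the Tek-Cre:Lama5-/- values below, those of Ccl2 in endothelial cells and in perivascular macrophages, did not pass their own test. In endothelial cells the Tek-Cre:Lama5-/- log2 fold changes of these pairs were 0.67 for Ccl2, 0.33 for Ccl3, 0.65 for Ccl4, 0.79 for Cxcl1, 0.61 for Cxcl10 and 1.30 for Cxcl2. Microglia markers were higher beside Ccl3 and Ccl4 there, with 5 of 8 called and a median of 0.41. Endothelial Ccl2, at a median of 2.10 CPM, was near smooth muscle (2.11 CPM) and oligodendrocytes (1.93 CPM). The source of this Ccl2 RNA was not tested. In perivascular macrophages the log2 fold changes were 0.11 for Ccl2, 2.98 for Cxcl1 and 0.53 for Cxcl2. In microglia they were 0.10 for Ccl3, 0.09 for Ccl4 and 1.11 for Ccl7. In smooth muscle they were 1.09 for Ccl3, 1.04 for Ccl4 and -0.72 for Cxcl12, with a median of 0.81 for the microglia markers, of which 1 of 8 was called, and in pericytes 1.76 for Cxcl1 and -0.68 for Cxcl12. The part of microglial RNA in these Ccl3 and Ccl4 values was not tested. In 15 of the 17 pairs the gene was higher in Tek-Cre:Lama5-/- and lower in Lama4-/-, against 10.5% of all such pairs of gene and class. The experiments had separate mice, WT controls and libraries, and genotype and experiment cannot be told apart here.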

How the results depend on the processing

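Of 38 pairs of chemokine and class tested in Tek-Cre:Lama5-/-, 23 were called, and 7 of these (endothelial Ccl4, Cxcl1, Cxcl2 and Cxcl10, microglial Cxcl2 and Cxcl10, smooth muscle Ccl4) were called under every alternative that gave an adjusted p. DESeq2 gave none for 9 pairs, 4 of them called, which are left out of the counts of lost calls. Alternatives that left out or isolated clusters were chosen after seeing the data. Over all members and alternatives, 397 of 475 values kept direction and side, 51 lost their call, 8 gained one and 19 turned. For Lama4-/-, 331 of 397 ratios moved by less than the spread between the WT libraries. The causes were not tested.

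Counts of called genes in Tek-Cre:Lama5-/- fell with DESeq2, to 161 in astrocytes, 864 in endothelial cells, 477 in microglia, 5 in pericytes, 12 in perivascular macrophages and 166 in smooth muscle. With doublets kept they were 159 in astrocytes and 10 in pericytes, and with a stricter cell filter 37 in astrocytes, 19 in pericytes and 19 in perivascular macrophages. Pericytes gave 27 with chemokine genes in the clustering, 24 at resolution 2 and 28 without the Col3a1 cluster, perivascular macrophages 23 with no count filter, and the 2 endothelial clusters led by Slc38a5 alone 1163. Leaving out 1 library gave 306 to 740 in astrocytes, 1587 to 1826 in endothelial cells, 817 to 1059 in microglia, 25 to 55 in pericytes, 1 to 41 in perivascular macrophages and 351 to 477 in smooth muscle. For Lama4-/-, genes past the fold were 59 in astrocytes with doublets kept. Without a WT library they were 69 to 126 in astrocytes, 80 to 84 in endothelial cells, 91 to 114 in microglia, 90 to 102 in pericytes, 124 to 153 in perivascular macrophages and 61 to 78 in smooth muscle.

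Levels moved with doublets kept for Ccl3 (2906 CPM) and Ccl4 (5295 CPM) in microglia and Cxcl10 in monocytes and dendritic cells (60.7 CPM), with chemokine genes in the clustering for the last (55.1 CPM), and with the stricter filter for endothelial Cx3cl1 (69.8 CPM). With doublets kept the log2 fold change turned to 1.45 for pericyte Ccl2, 0.39 for astrocyte Cxcl12, 0.090 for microglial, 0.066 for pericyte and 0.21 for perivascular macrophage Cxcl12. With the stricter filter it turned to 0.34 for astrocyte and 0.50 for microglial Cxcl12 and to -0.00097 for perivascular macrophage Ccl3.

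Leaving out 1 library turned the log2 fold change of 7 uncalled pairs, which ran from -0.38 to 0.084 (microglial Ccl12), -0.71 to 0.55 (perivascular macrophage Ccl12), -0.62 to 0.55 (pericyte Ccl2), -0.067 to 0.46 (perivascular macrophage Ccl3), -6.64 to 0.70 (astrocyte Cxcl10), -0.70 to 0.38 (astrocyte Cxcl12) and -1.29 to 0.75 (perivascular macrophage Cxcl12). With the replicate number as a block, pericytes gave 86 called genes in place of 49, and all 38 chemokine pairs kept their call and direction. Libraries of the same number did not deviate together, with correlations of -0.028 to 0.046 over 6 classes. No paired analysis was possible for Lama4-/- because it has 1 distinct library.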
